A study of Homo sapiens with 9 samples.

Results

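The transcripts examined were those of 47 human genes for complement components, complement regulators and acute phase or related plasma proteins. They were taken by symbol from a table of 27800 gene symbols that were quantified in Huh7, an established line of human hepatocellular carcinoma cells. All 47 symbols were listed, and 34 reached at least 1 TPM (a transcript level scaled to transcript length and to the library total) in at least 3 of 9 libraries and were tested. Total RNA had been sequenced from 3 groups of 3 libraries. The first group received FIDAS-5 at 5 uM for 48 h, an inhibitor of MAT2A, which makes the methyl donor S-adenosylmethionine. The second received JQ1 at 0.5 uM for 48 h, an inhibitor of the BET bromodomain proteins, which bind acetylated histones. The third received vehicle, whose nature and time the labels do not give. All groups were the same line grown in DMEM with fetal bovine serum, each compound was used at 1 dose, and neither is an analog of the other. Whether the 3 libraries of a group are separate cultures is not stated in the labels. The p-values therefore reflect the spread among libraries, which could be technical.

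Complement is a cascade of plasma proteases and binding proteins, most of which are made by hepatocytes. The classical pathway starts when C1q, C1r and C1s act on bound antibody, the lectin pathway when mannose-binding lectin binds microbial sugars, and the alternative pathway by turnover of C3 with factor B. All routes cleave C3 and then C5, and the terminal components C6 to C9 join into a membrane pore, while plasma and membrane-bound regulators protect host cells. Acute phase proteins are liver proteins whose plasma level changes in inflammation, in large part through interleukin 6 acting on the gp130 receptor chain and STAT3, together with interleukin 1 and C/EBP factors.

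The line label was set beside marker genes of liver cell types. All 10 hepatocyte markers were tested, AFP, the fetal albumin-like protein typical of this line, among them, and their summed level was 5769 to 7678 TPM in FIDAS-5 libraries, 12461 to 17507 TPM in JQ1 libraries and 5546 to 6700 TPM in vehicle libraries. With FIDAS-5, 3 of these markers were called higher and 0 lower than in vehicle, where 20.2% of all tested genes were called, and with JQ1, 8 were called higher and 1 lower, where 38.5% were called. The 13 leukocyte and Kupffer cell markers summed to 253 to 312 TPM with FIDAS-5, 19.4 to 28.4 TPM with JQ1 and 115 to 141 TPM in vehicle. LYZ, lysozyme, accounted for 227 to 283 TPM of that with FIDAS-5, 9.89 to 14.9 TPM with JQ1 and 102 to 125 TPM in vehicle, and LCP1 for 15.2 to 19.1, 5.08 to 8.27 and 5.26 to 9.32 TPM in those groups. CD68 had 5.73 to 7.88 TPM with FIDAS-5, 1.77 to 2.40 TPM with JQ1 and 3.52 to 4.05 TPM in vehicle. CD14 had 1.92 to 2.02, 1.59 to 2.23 and 2.12 to 2.85 TPM in those groups. CD163, MARCO, C1QB and C1QC were listed at 0 in all 9 libraries. The 8 fibroblast and stellate cell markers summed to 5.64 to 9.07 TPM with FIDAS-5, 3.63 to 5.89 TPM with JQ1 and 9.27 to 9.64 TPM in vehicle. The 7 endothelial markers summed to 15.4 to 16.7 TPM with FIDAS-5, 1.39 to 1.69 TPM with JQ1 and 6.61 to 9.91 TPM in vehicle, with CDH5 and CLEC4G listed at 0. PECAM1 accounted for 15.3 to 16.5 TPM of that with FIDAS-5, 1.28 to 1.61 TPM with JQ1 and 6.52 to 9.83 TPM in vehicle. The 6 cholangiocyte markers summed to 24.4 to 39.7 TPM with FIDAS-5, 31.9 to 48.6 TPM with JQ1 and 26.4 to 32.4 TPM in vehicle, with KRT7 listed at 0. The part of these marker lists in the results below was not tested. In bulk RNA, fewer cells that express a gene and less RNA per cell cannot be told apart.

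A library held 12229 to 13014 genes at 1 TPM or more, and the protein-coding share of TPM was 28.3 to 33.1% in FIDAS-5 libraries, 27.6 to 34.0% in JQ1 libraries and 30.3 to 32.1% in vehicle libraries. Sequencing depth is unknown, because TPM keeps no counts. Libraries of a group differed along transcript GC content: the Spearman correlation across genes of a library's deviation from its group mean with GC content was -0.506, -0.209 and 0.555 in FIDAS-5 libraries 1 to 3, -0.655, -0.341 and 0.641 in JQ1 libraries and 0.385, -0.273 and -0.139 in vehicle libraries. Library 3 went the opposite way from libraries 1 and 2 in both treated groups. Deviations from a mean of 3 balance, so these values do not single out 1 library of a group. Several members were lowest in library 3 of both treated groups. CD46, with 37.9% GC, had 0.477 of the mean of the other libraries of its group in FIDAS-5 library 3 and 0.32 in JQ1 library 3. MASP2, with 58.3% GC, had 0.502 and 0.365 of it in those libraries. Vehicle library 1 held 2.03 times as much C3, 1.91 times as much SERPING1 and 1.74 times as much CLU as the mean of the other vehicle libraries. For these 5 members, values without those libraries are given with the results.

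The 47 members together summed to 3245, 2689 and 2824 TPM in FIDAS-5 libraries 1 to 3, to 2374, 2477 and 2237 TPM in JQ1 libraries, and to 1897, 1872 and 1775 TPM in vehicle libraries. That was 0.942 to 0.999% of all protein-coding TPM with FIDAS-5, 0.698 to 0.810% with JQ1 and 0.576 to 0.627% in vehicle, with no overlap between groups. These sums are weighted to abundant members and do not give the direction of most members. With FIDAS-5, VTN averaged 789 TPM and AMBP 663 TPM. With JQ1, AMBP averaged 879 TPM, CLU 528 TPM and ITIH2 77.9 TPM, and 16 tested members fell while 8 rose. Among single members in vehicle, the highest were ITIH2 at 380.5 ± 57.5 TPM, VTN at 327 ± 26.2 TPM, AMBP at 273 ± 26.0 TPM and AHSG at 168 ± 14.4 TPM (SD, n = 3 each). ITIH2 and VTN overlapped between libraries, as did VTN and AMBP, whereas AHSG lay below all 3 in every library. CLU at 113 ± 44.5 TPM, SERPING1 at 82.1 ± 34.5, HPX at 66.1 ± 6.42, ORM1 at 65.7 ± 4.23, MASP1 at 65.7 ± 7.6, C3 at 59.3 ± 27.2 and C5 at 50.5 ± 7.57 TPM formed a middle range whose neighbours did not differ beyond their spread. Of the classical acute phase proteins, CRP was listed at 0.0617 TPM or less in vehicle and SAA1 at 0.114 TPM or less.

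**Figure D1:**
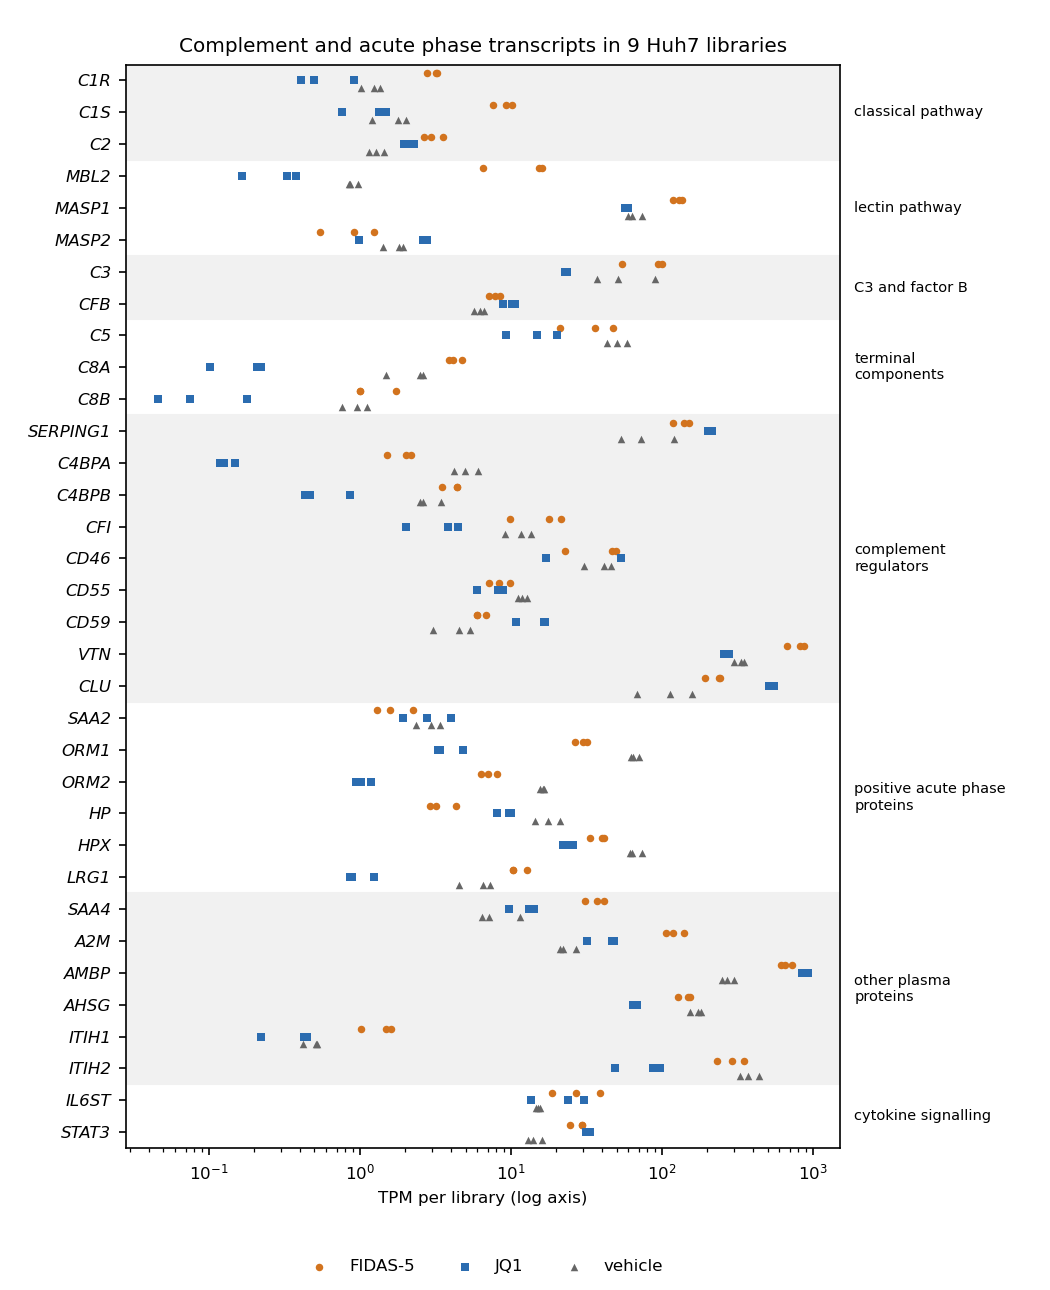
TPM (log axis) of the 34 tested members in each library, grouped by role; circles are FIDAS-5, squares JQ1 and triangles vehicle libraries, and each point is 1 library. Levels run from 0.0463 TPM (C8B with JQ1) to 921 TPM (AMBP with JQ1), and the circles of C1S, MBL2 and A2M lie to the right of both other groups.

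Each compound was compared with the same 3 vehicle libraries, and JQ1 with FIDAS-5, by limma on log2(TPM + 1), with a gene called where its p, adjusted by Benjamini-Hochberg over all 13573 tested genes, was under 0.05. All adjusted p-values below are from this fit, and all log2 fold changes are on the log2(TPM + 1) scale, which understates the change of genes at a few TPM. With FIDAS-5, 14 members rose, 5 fell and 15 of the 34 tested were not called. Of all tested genes, 20.2% were called in this comparison, 12.6% higher and 7.6% lower. The median log2 fold change was 0.49 over the tested members and -0.02 over all tested genes. The libraries of the groups did not overlap for 26 tested members, against 39.3% of all tested genes. With JQ1, 8 members rose, 16 fell and 10 were not called, where 38.5% of all tested genes were called, 19% higher and 19.4% lower. The median was -0.38 over the tested members and -0.01 over all genes, and 27 members did not overlap, against 50.7% of all genes. MBL2 and ITIH1 passed the filter through their FIDAS-5 libraries alone. C1R, C4BPA, C4BPB, C8A and C8B passed through vehicle and FIDAS-5 libraries only. So these counts and medians, and those by role below, describe the members that passed and are not support for a difference.

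**Figure D2:**
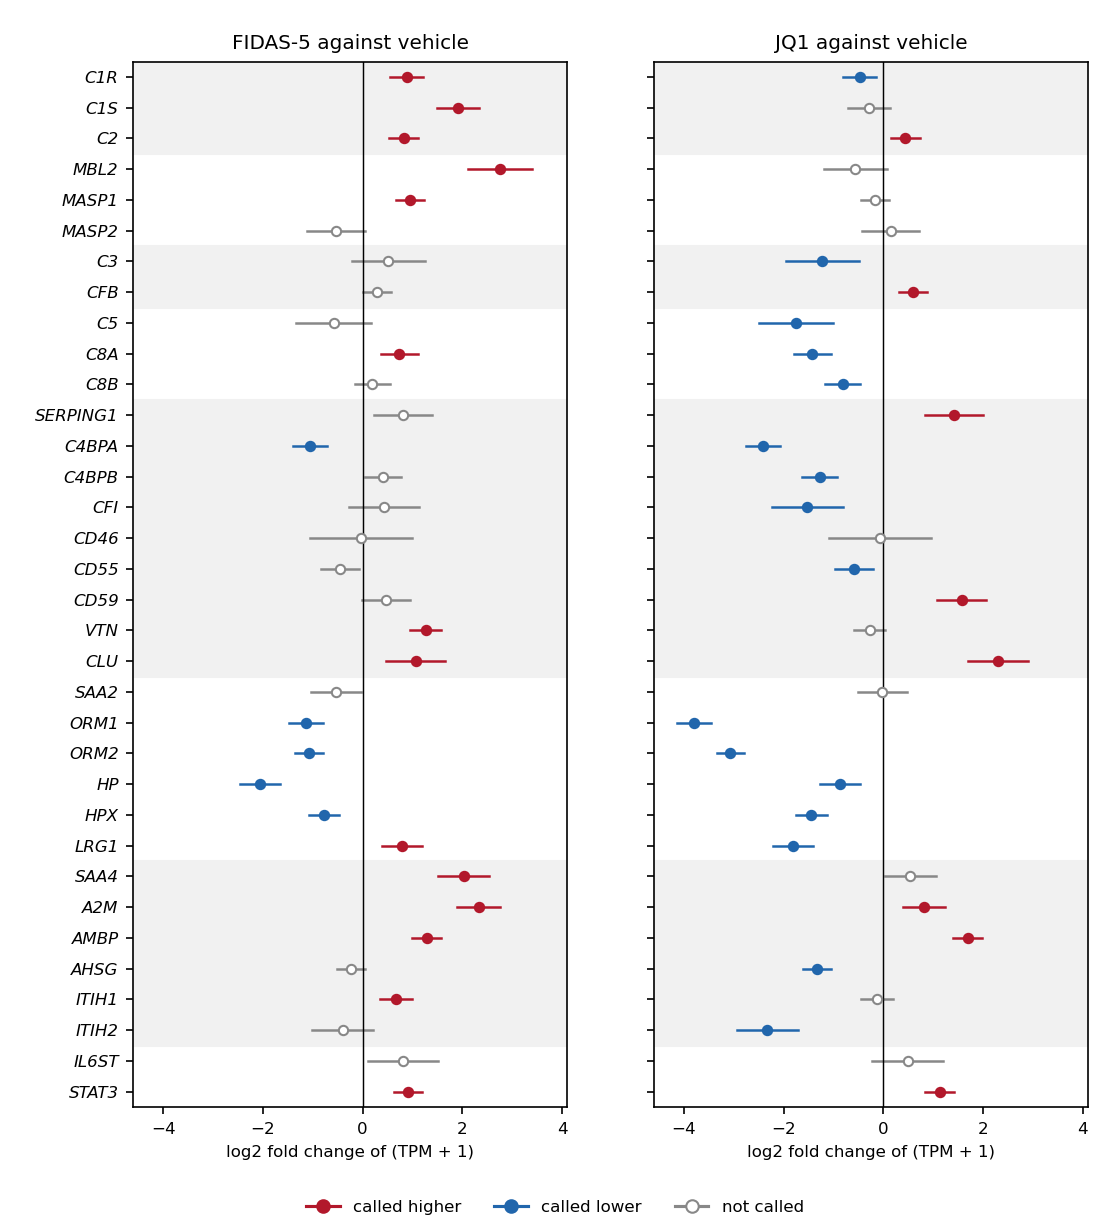
Log2 fold change of (TPM + 1) of the 34 tested members with FIDAS-5 (left) and with JQ1 (right), each against the same vehicle libraries; lines are 95% confidence intervals, filled points passed an adjusted p of 0.05 and open points did not. ORM1, ORM2, HP, HPX and C4BPA lie left of 0 in both panels, and C8A and LRG1 lie right of 0 with FIDAS-5 and left of it with JQ1.

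Sequences upstream of members with large fold changes are shown here because the DNA-binding factors of the acute phase response act there. RefSeq promoter windows (GRCh38.p14) were at hand for 33 of the 47 members. Gene coordinates below are of the same build. The part of each window before the first exon base of any GENCODE transcript is printed on the gene's strand, and capitals mark matches to the motifs searched. ORM1 lies on chromosome 9 and its upstream sequence is chr9:114322848-114323055 (plus strand). C4BPA is on chromosome 1, chr1:207103983-207104232 (plus). MBL2 has its more upstream window at chr10:52772785-52773034 (minus), HPX its window at chr11:6441067-6441237 (minus) and SAA4 at chr11:18236894-18237052 (minus).
ORM1: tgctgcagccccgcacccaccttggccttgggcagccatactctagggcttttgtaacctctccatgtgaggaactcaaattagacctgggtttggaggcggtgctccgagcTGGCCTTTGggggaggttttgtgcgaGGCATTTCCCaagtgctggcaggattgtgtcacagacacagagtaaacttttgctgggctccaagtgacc
C4BPA: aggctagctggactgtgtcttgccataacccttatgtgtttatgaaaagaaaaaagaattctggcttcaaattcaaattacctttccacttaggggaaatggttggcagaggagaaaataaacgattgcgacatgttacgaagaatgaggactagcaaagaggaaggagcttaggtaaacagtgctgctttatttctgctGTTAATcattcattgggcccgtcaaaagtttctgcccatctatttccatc
MBL2: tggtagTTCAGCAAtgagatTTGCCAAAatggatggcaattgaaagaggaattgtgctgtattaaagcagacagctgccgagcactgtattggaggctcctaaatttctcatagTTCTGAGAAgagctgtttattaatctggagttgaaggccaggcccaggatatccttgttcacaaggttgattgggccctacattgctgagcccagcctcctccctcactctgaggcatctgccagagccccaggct
HPX: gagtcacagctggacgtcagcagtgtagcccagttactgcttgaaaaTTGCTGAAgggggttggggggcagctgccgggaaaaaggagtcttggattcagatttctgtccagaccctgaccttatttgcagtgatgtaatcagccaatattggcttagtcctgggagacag
SAA4: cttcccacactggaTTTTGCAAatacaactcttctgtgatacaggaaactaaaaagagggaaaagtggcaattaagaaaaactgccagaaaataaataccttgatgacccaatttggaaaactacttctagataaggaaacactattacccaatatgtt
In ORM1 the capitals mark an HNF4-type match 138 bases before the start site and an NF-kappaB-type match 112 bases before it. In C4BPA they mark an HNF1 core site 50 bases before the start, in MBL2 a STAT palindrome at 136 bases and C/EBP core sites at 244 and 230 bases, in HPX a C/EBP core site at 203 bases and in SAA4 a C/EBP core site at 236 bases.

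The motifs were searched on both strands of the 250 bases before each start site. The STAT palindrome TTCNNNGAA was found in 9 of 33 members (27.3%) and in 8.09% of 27305 genes. The C/EBP core site TTGCNNAA was found in 9 members (27.3%) and 11% of genes, and the NF-kappaB form, GGGA and CC with any 4 bases between, in 8 members (24.2%) and 25.8% of genes. The HNF1 core site GTTAAT was found in 6 members (18.2%) and 7.5% of genes, and the HNF4 form CAAAGNCCA in 3 members (9.09%) and 1.68% of genes. The STAT palindrome lay upstream of C1R, C4BPB, CD59, CFB, ITIH4, LRG1, MASP2, MBL2 and VTN, of which C1R, LRG1, MBL2 and VTN rose with FIDAS-5, and C1R, C4BPB and LRG1 fell while CFB and CD59 rose with JQ1. A match describes letters, not a bound site, and no test was made.

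In the classical pathway, C1R, C1S and C2 rose with FIDAS-5, and C1S rose most. C1S, the protease that cleaves C4 and C2, had 10.1, 7.6 and 9.33 TPM in FIDAS-5 libraries, 1.34, 1.48 and 0.763 TPM in JQ1 libraries and 1.21, 2.02 and 1.79 TPM in vehicle libraries. All 3 FIDAS-5 libraries lay above the other 6, whereas JQ1 and vehicle overlapped. The mean with FIDAS-5 was 5.39 times that of vehicle (log2 fold change 1.91, SE 0.19, adjusted p = 2.43e-04), and with JQ1 the change was -0.29 (adjusted p = 0.252). C1R, the protease that activates C1s, had 3.24, 3.17 and 2.79 TPM with FIDAS-5, 0.907, 0.497 and 0.407 TPM with JQ1 and 1.36, 1.01 and 1.25 TPM in vehicle. The groups did not overlap. C1R rose with FIDAS-5 by 0.88 (SE 0.15, adjusted p = 0.00339) and fell with JQ1 by 0.47 on the log2 scale (SE 0.15, adjusted p = 0.0318). The JQ1 call on C1R was lost without vehicle library 1 (adjusted p = 0.0815), vehicle library 3 (0.0926), JQ1 library 2 (0.106) or JQ1 library 3 (0.0819), and with only the 6 libraries compared (0.0665), and with a pseudocount of 0.1 its change was -0.95. C1R and C1S are neighbours on chromosome 12 (chr12:7080219-7092445 and chr12:7060718-7071032).

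C2, whose fragment is the protease of the classical C3 convertase, had 2.66, 3.54 and 2.97 TPM with FIDAS-5, 2.07, 2.28 and 1.96 TPM with JQ1 and 1.28, 1.45 and 1.14 TPM in vehicle, again with no overlap. It rose with FIDAS-5 by 0.82 (SE 0.13, adjusted p = 0.00244) and with JQ1 by 0.44 (SE 0.13, adjusted p = 0.0226). The JQ1 call on C2 was lost without vehicle library 3 (adjusted p = 0.0873), JQ1 library 1 (0.0564) or JQ1 library 2 (0.0865), under quantile normalization (0.0540) and with the GC trend removed (0.0575), and its change was 0.67 with a pseudocount of 0.1. C4A and C4B, the C4 copies, were not tested and reached at most 0.327 and 0.373 TPM. Their coding sequences are 99.8% identical over 5235 bases, so how reads were split between them is uncertain.

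In the lectin pathway, MBL2 and MASP1 were called higher with FIDAS-5, though MBL2 entered the test only through its FIDAS-5 libraries. MBL2, the mannose-binding lectin that recognises microbial sugars, had 16.2, 15.3 and 6.55 TPM with FIDAS-5, 0.378, 0.328 and 0.166 TPM with JQ1 and 0.851, 0.865 and 0.973 TPM in vehicle. FIDAS-5 library 3 was the lowest of its group, and still each FIDAS-5 library lay above all others. The mean was 14.1 times that of vehicle (log2 fold change 2.76, SE 0.28, adjusted p = 2.98e-04, and 0.00130 with no filter), and 3.14 without library 3 of both treated groups. With JQ1, all 3 libraries lay below vehicle and the change of -0.56 was not called (95% interval -1.2 to 0.08, adjusted p = 0.149). That change in MBL2 was -1.39 (adjusted p = 0.0163) with a pseudocount of 0.1 and -1.04 (adjusted p = 0.00777) with protein-coding genes rescaled alone, and was called without FIDAS-5 library 3 (-0.56, adjusted p = 0.0110), which enters only the shared estimate of the spread.

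MASP1, a protease that circulates with mannose-binding lectin, had 129, 118 and 136 TPM with FIDAS-5, 58.8, 59.5 and 56.6 TPM with JQ1 and 59.6, 74.2 and 63.1 TPM in vehicle. The FIDAS-5 libraries stood apart, while JQ1 libraries lay just below vehicle. The log2 fold change was 0.95 with FIDAS-5 (SE 0.13, adjusted p = 0.00113) and -0.16 with JQ1 (adjusted p = 0.339). MASP2, the protease that cleaves C4 and C2 in this pathway, had 1.25, 0.911 and 0.542 TPM with FIDAS-5, 2.60, 2.78 and 0.984 TPM with JQ1 and 1.81, 1.41 and 1.94 TPM in vehicle. Its changes of -0.53 with FIDAS-5 (adjusted p = 0.184) and 0.15 with JQ1 (adjusted p = 0.680) were not called, and JQ1 library 3 had 0.365 of the mean of the other JQ1 libraries. Without JQ1 library 3 the FIDAS-5 change in MASP2 was called (adjusted p = 0.0465), and without library 3 of both treated groups the changes were -0.39 with FIDAS-5 (adjusted p = 0.130) and 0.45 with JQ1 (adjusted p = 0.0511).

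At the C3 step, C3 fell and CFB rose with JQ1, and neither was called with FIDAS-5. C3, the central component that every pathway cleaves, had 99.9, 54.4 and 93.7 TPM with FIDAS-5, 23.0, 22.9 and 23.6 TPM with JQ1 and 89.6, 37.0 and 51.3 TPM in vehicle. JQ1 libraries lay within 1 TPM of each other and below all vehicle libraries, among which library 1 was high. C3 fell with JQ1 by 1.23 on the log2 scale (SE 0.32, adjusted p = 0.0160), and with FIDAS-5 the change was 0.52 (95% interval -0.22 to 1.25, adjusted p = 0.30). Without vehicle library 1 the changes in C3 were -0.89 with JQ1 (adjusted p = 0.0363) and 0.86 with FIDAS-5 (adjusted p = 0.0619). CFB, factor B of the alternative pathway convertase, had 8.44, 7.79 and 7.17 TPM with FIDAS-5, 10.1, 10.6 and 8.80 TPM with JQ1 and 6.61, 6.21 and 5.73 TPM in vehicle. No groups overlapped, with JQ1 highest. The log2 fold change was 0.59 with JQ1 (SE 0.12, adjusted p = 0.00534) and 0.29 with FIDAS-5 (adjusted p = 0.134).

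Of the 6 terminal components, the 3 that were tested, C5, C8A and C8B, were all lower with JQ1 than in vehicle. Of all tested genes, 19.4% were called lower with JQ1. C8A and C8B passed the filter through vehicle and FIDAS-5 libraries only, so their lower level with JQ1 is tied to the filter. The untested C8G, given below, was listed higher with JQ1 than in vehicle. C8A, the alpha chain of C8, had 4.76, 4.15 and 3.92 TPM with FIDAS-5, 0.208, 0.222 and 0.101 TPM with JQ1 and 1.49, 2.60 and 2.5 TPM in vehicle. The groups did not overlap and went opposite ways from vehicle. C8A rose with FIDAS-5 by 0.74 (SE 0.16, adjusted p = 0.0125) and fell with JQ1 by 1.42 on the log2 scale (SE 0.16, adjusted p = 2.44e-04), a 12.4-fold lower mean. C8B, the beta chain, had 1.01, 1.73 and 0.994 TPM with FIDAS-5, 0.0463, 0.178 and 0.0752 TPM with JQ1 and 0.764, 0.951 and 1.11 TPM in vehicle. Only the JQ1 libraries stood apart, with a 9.45-fold lower mean (log2 fold change -0.82, SE 0.15, adjusted p = 0.00329), and the FIDAS-5 change was 0.20 (adjusted p = 0.411). With a pseudocount of 0.1 the JQ1 changes were -3.04 for C8A and -2.42 for C8B.

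C5, the source of the C5a peptide and of the C5b that nucleates the pore, had 47.5, 36.1 and 21.1 TPM with FIDAS-5, 20.3, 15.0 and 9.27 TPM with JQ1 and 43.1, 58.2 and 50.2 TPM in vehicle. It was lower in all JQ1 libraries than in all vehicle libraries, and library 3 was lowest in both treated groups. The log2 fold change was -1.75 with JQ1 (SE 0.33, adjusted p = 0.00333) and -1.47 without library 3 of both treated groups (adjusted p = 0.00153). With FIDAS-5 it was -0.58 (adjusted p = 0.255), and -0.27 without those libraries. C6, C8G and C9 were not tested, and reached at most 0.101, 0.949 and 0.0141 TPM. C8G was listed at 0.809, 0.630 and 0.783 TPM with FIDAS-5 and 0.430, 0.949 and 0.419 TPM with JQ1. In vehicle it was listed at 0.227, 0.315 and 0.365 TPM, below all treated libraries, with every value under the filter.

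Among the 9 complement regulators, all tested, VTN and CLU rose and C4BPA fell with FIDAS-5, and SERPING1, CD59 and CLU rose and C4BPA, C4BPB, CFI and CD55 fell with JQ1. Of the 9, 33.3% were called with FIDAS-5 and 77.8% with JQ1, against 20.2% and 38.5% of all tested genes. C4BPA, the alpha chain of C4b-binding protein, a soluble brake on the classical pathway, had 2.19, 2.03 and 1.5 TPM with FIDAS-5, 0.148, 0.119 and 0.126 TPM with JQ1 and 4.2, 6.06 and 4.99 TPM in vehicle. The groups were fully separate, with JQ1 lowest. C4BPA fell with FIDAS-5 by 1.06 on the log2 scale (SE 0.15, adjusted p = 0.00160) and its change with JQ1 was -2.42 (SE 0.15, adjusted p = 1.55e-05), a 38.7-fold lower mean, or -4.47 with a pseudocount of 0.1. Its partner chain C4BPB had 4.36, 3.51 and 4.37 TPM with FIDAS-5, 0.861, 0.469 and 0.434 TPM with JQ1 and 2.5, 2.60 and 3.42 TPM in vehicle. C4BPB fell with JQ1, with a change of -1.28 (SE 0.16, adjusted p = 3.79e-04), or -2.13 with a pseudocount of 0.1, but with FIDAS-5 the change was 0.41 (adjusted p = 0.106), although those libraries lay above vehicle. The genes of both chains are neighbours (chr1:207104233-207144972 for C4BPA and chr1:207088860-207099993 for C4BPB).

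CFI, factor I, the protease that inactivates C3b and C4b, had 21.6, 17.8 and 9.89 TPM with FIDAS-5, 4.45, 3.82 and 2.02 TPM with JQ1 and 9.09, 13.7 and 11.7 TPM in vehicle. JQ1 libraries were below all others, and FIDAS-5 library 3 was within the vehicle range. CFI fell with JQ1 by 1.52 on the log2 scale (SE 0.31, adjusted p = 0.00489), and the change was -1.27 without library 3 of both treated groups. With FIDAS-5 it changed by 0.43 (adjusted p = 0.366), and by 0.74 without those libraries (adjusted p = 0.0361). SERPING1, the C1 inhibitor, had 151, 141 and 118 TPM with FIDAS-5, 203, 209 and 213 TPM with JQ1 and 120.5, 53.6 and 72.2 TPM in vehicle. JQ1 libraries were highest, and vehicle library 1 reached into the FIDAS-5 range. The log2 fold change of SERPING1 was 1.41 with JQ1 (SE 0.26, adjusted p = 0.00280) and 0.80 with FIDAS-5 (SE 0.26, adjusted p = 0.0583). The FIDAS-5 change in SERPING1 was 1.12 (adjusted p = 0.00437) without vehicle library 1, and the JQ1 change 1.73.

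VTN, vitronectin, which binds the forming pore complex in plasma, had 873, 676 and 818 TPM with FIDAS-5, 258, 273 and 277 TPM with JQ1 and 349.9, 299 and 333 TPM in vehicle. FIDAS-5 libraries were at least 676 TPM, while JQ1 libraries lay below vehicle. VTN rose with FIDAS-5 by 1.26 (SE 0.13, adjusted p = 3.72e-04), and the JQ1 change was -0.28 (adjusted p = 0.135), or -0.42 (adjusted p = 0.00392) once a GC trend was removed. CLU, clusterin, a chaperone that also binds the pore complex, had 242, 194 and 237 TPM with FIDAS-5, 508, 553 and 521 TPM with JQ1 and 157, 68.0 and 113 TPM in vehicle. The groups did not overlap. CLU rose with JQ1 by 2.30 (SE 0.26, adjusted p = 2.59e-04) and with FIDAS-5 by 1.06 (SE 0.26, adjusted p = 0.0220). The FIDAS-5 call on CLU was lost without vehicle library 3 (adjusted p = 0.0614), FIDAS-5 library 1 (0.0676) or FIDAS-5 library 3 (0.0737), and without vehicle library 1 the changes in CLU were 1.34 with FIDAS-5 and 2.58 with JQ1.

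The membrane regulators differed among themselves with JQ1. CD59, which stops pore assembly on host cells, had 6.80, 5.93 and 5.95 TPM with FIDAS-5, 16.9, 16.6 and 10.7 TPM with JQ1 and 3.03, 5.33 and 4.54 TPM in vehicle. It rose with JQ1 by 1.57 (SE 0.21, adjusted p = 6.61e-04), and with FIDAS-5 the change was 0.47 (adjusted p = 0.163). CD55, decay-accelerating factor, had 9.92, 8.30 and 7.17 TPM with FIDAS-5, 8.25, 8.80 and 5.94 TPM with JQ1 and 12.7, 11.8 and 11.1 TPM in vehicle, so that every treated library was below every vehicle library. CD55 fell with JQ1 by 0.58 on the log2 scale (SE 0.17, adjusted p = 0.0238), and its FIDAS-5 change was -0.45 (adjusted p = 0.0969), called without JQ1 library 3 (adjusted p = 0.0480). The JQ1 call on CD55 was lost without JQ1 library 3 (adjusted p = 0.0573) or without vehicle library 1, 2 or 3 (0.0640, 0.0546 and 0.0516). CD46, a cofactor for factor I, had 49.6, 46.4 and 22.9 TPM with FIDAS-5, 53.3, 53.9 and 17.1 TPM with JQ1 and 30.4, 45.9 and 41.1 TPM in vehicle. Its spread was wide, with log2 fold changes of -0.04 (95% interval -1.06 to 0.99) with FIDAS-5 and -0.07 (-1.09 to 0.96) with JQ1. Without library 3 of both treated groups the changes in CD46 were 0.31 with FIDAS-5 (adjusted p = 0.306) and 0.46 with JQ1 (adjusted p = 0.0835).

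**Figure D3:**
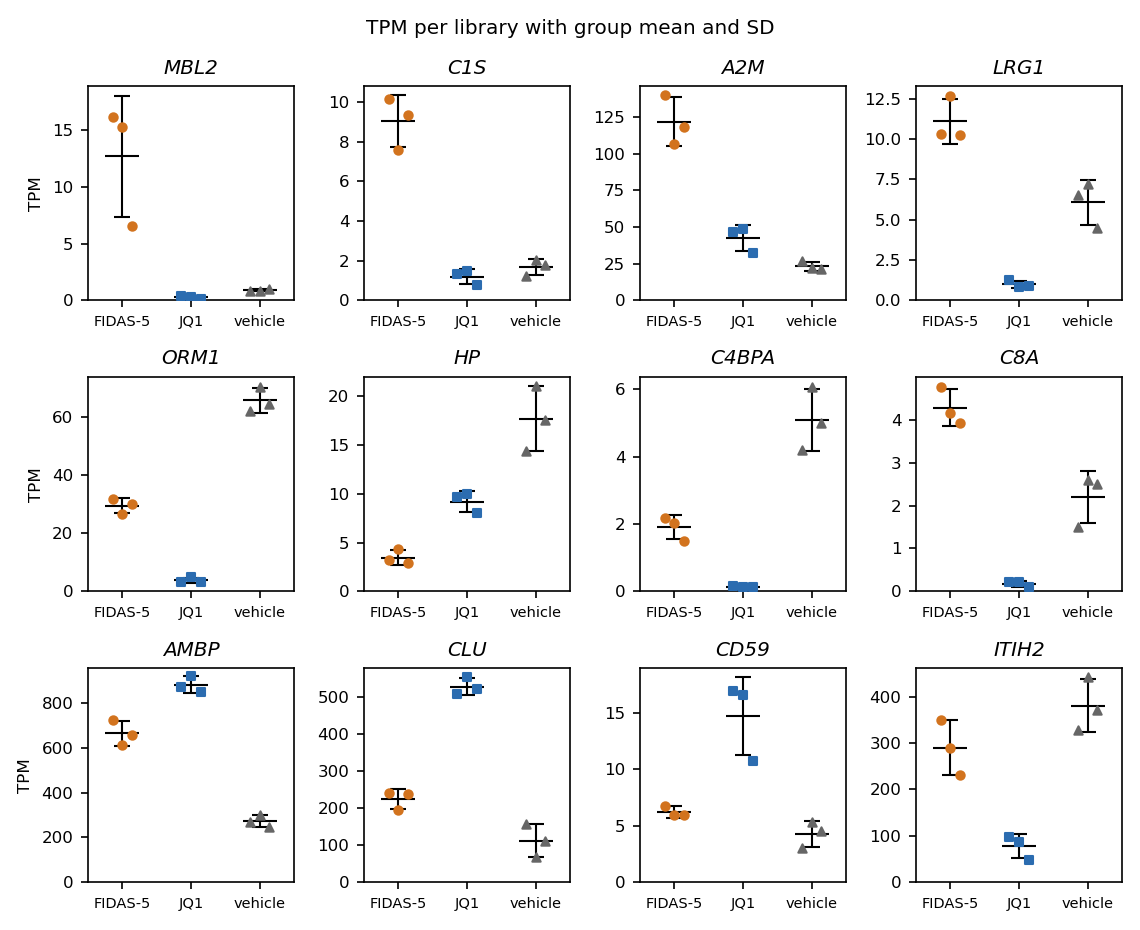
TPM per library of 12 members (linear axes from 0), with FIDAS-5, JQ1 and vehicle from left to right; points are libraries and the bars are the mean and SD of 3 libraries. MBL2, C1S, A2M and LRG1 were highest with FIDAS-5, ORM1, HP and C4BPA were highest in vehicle, and AMBP, CLU and CD59 were highest with JQ1.

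Of the 11 members grouped here as positive acute phase proteins, 6 were tested: 4 fell and 1 rose with FIDAS-5, and 5 fell with JQ1. The called share of those tested was 83.3% with each compound, against 20.2% and 38.5% of all tested genes. ORM1 and ORM2, near-copies of each other, count for 2 of the 6. This grouping leaves out the members placed with complement, of which some rose and some fell with JQ1. Positive acute phase genes outside the members, given below, include some that rose with JQ1. With FIDAS-5, FGA among them was called higher, and FGB, FGG, SERPINA1, SERPINA3 and CP were not called. ORM1, alpha-1-acid glycoprotein 1, a carrier of drugs in plasma, had 31.8, 26.6 and 30.1 TPM with FIDAS-5, 3.29, 4.81 and 3.41 TPM with JQ1 and 62.3, 70.4 and 64.4 TPM in vehicle. The 3 groups were far apart. ORM1 fell with FIDAS-5 by 1.13 on the log2 scale (SE 0.15, adjusted p = 0.00114) and its change with JQ1 was -3.80 (SE 0.15, adjusted p = 2.99e-06), a 17.1-fold lower mean. ORM2, its near-copy, had 6.35, 8.06 and 7.07 TPM with FIDAS-5, 1.01, 1.19 and 0.946 TPM with JQ1 and 16.3, 16.5 and 15.5 TPM in vehicle, and fell with both compounds, by changes of -1.07 with FIDAS-5 (adjusted p = 5.39e-04) and -3.06 with JQ1 (adjusted p = 2.99e-06). The coding sequences of ORM1 and ORM2 are 94.9% identical over 606 bases, so the split between them is uncertain. Summed, the pair stood at 34.6 to 38.1 TPM with FIDAS-5, 4.30 to 6.0 TPM with JQ1 and 78.6 to 86.9 TPM in vehicle.

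HP, haptoglobin, which binds free haemoglobin, was the member that fell most with FIDAS-5. It had 3.19, 4.30 and 2.91 TPM with FIDAS-5, 9.65, 9.95 and 8.02 TPM with JQ1 and 14.4, 21.1 and 17.6 TPM in vehicle, with no overlap. HP fell with FIDAS-5 by 2.06 on the log2 scale (SE 0.18, adjusted p = 1.26e-04), a 5.10-fold lower mean, and its change with JQ1 was -0.86 (SE 0.18, adjusted p = 0.00507). HPR, the haptoglobin-related gene outside the members, averaged 1.43 TPM with FIDAS-5, 1.40 TPM with JQ1 and 4.34 TPM in vehicle. How reads were split between HP and HPR was not examined. HPX, hemopexin, which binds free haem, had 39.9, 41.0 and 33.6 TPM with FIDAS-5, 22.2, 25.9 and 22.8 TPM with JQ1 and 63.0, 73.4 and 61.7 TPM in vehicle. Here JQ1 was lowest. HPX fell with FIDAS-5 by 0.78 (SE 0.13, adjusted p = 0.00432), and its change with JQ1 was -1.44 (SE 0.13, adjusted p = 9.31e-05).

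LRG1, leucine-rich alpha-2-glycoprotein, had 10.3, 12.7 and 10.3 TPM with FIDAS-5, 1.24, 0.855 and 0.888 TPM with JQ1 and 6.51, 7.21 and 4.51 TPM in vehicle. It was the member grouped under the positive acute phase role that rose with FIDAS-5, and the treatment groups did not overlap. The log2 fold change of LRG1 was 0.79 with FIDAS-5 (SE 0.18, adjusted p = 0.0140, and 0.0515 without FIDAS-5 library 2) and -1.81 with JQ1 (SE 0.18, adjusted p = 1.12e-04). SAA2, a serum amyloid A, had 2.23, 1.29 and 1.58 TPM with FIDAS-5, 4.0, 2.80 and 1.94 TPM with JQ1 and 2.96, 2.34 and 3.41 TPM in vehicle. Its changes of -0.54 with FIDAS-5 (adjusted p = 0.122) and -0.02 with JQ1 (adjusted p = 0.950) were not called, and its coding sequence is 97% identical to that of SAA1. All FIDAS-5 libraries lay below vehicle. The FIDAS-5 change in SAA2 was called with median-of-ratios scaling, quantile normalization, protein-coding genes rescaled alone or the GC trend removed (lowest adjusted p = 0.0233). CRP, SAA1, LBP, ITIH3 and ITIH4 were not tested. ITIH4 was listed at 0.0777, 0.0946 and 0.145 TPM with FIDAS-5, 0.221, 0.205 and 0.241 TPM with JQ1 and 0.0180, 0.0427 and 0.0280 TPM in vehicle, all under the filter. CRP and ITIH3 were listed at 0 in all JQ1 libraries, and LBP in all libraries but 1.

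Of 7 constitutive, negative acute phase and inter-alpha-trypsin inhibitor genes, 6 were tested: 4 were called higher with FIDAS-5, ITIH1 among them, and 2 rose and 2 fell with JQ1. That was 66.7% of those tested with each compound, against 20.2% and 38.5% of all tested genes. A2M, alpha-2-macroglobulin, a broad protease trap, had 140.0, 107 and 118 TPM with FIDAS-5, 46.7, 48.4 and 32.1 TPM with JQ1 and 26.9, 22.0 and 21.3 TPM in vehicle. Each group stood apart, with FIDAS-5 highest. A2M rose with FIDAS-5 by 2.33 (SE 0.19, adjusted p = 9.09e-05), 5.21 times the vehicle mean, and with JQ1 by 0.82 (SE 0.19, adjusted p = 0.00895). SAA4, the constitutive serum amyloid A, had 37.3, 30.8 and 41.2 TPM with FIDAS-5, 14.2, 13.2 and 9.71 TPM with JQ1 and 6.43, 11.5 and 7.15 TPM in vehicle. FIDAS-5 stood apart, and JQ1 library 3 was below vehicle library 2. SAA4 rose with FIDAS-5 by 2.03 (SE 0.23, adjusted p = 4.85e-04), and its JQ1 change of 0.54 (adjusted p = 0.0913) was called without vehicle library 2 (0.76, adjusted p = 0.0200) or JQ1 library 3 (0.69, adjusted p = 0.0448).

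AMBP, the precursor of alpha-1-microglobulin and of bikunin, the light chain of the inter-alpha-trypsin inhibitors, had 721, 611 and 658 TPM with FIDAS-5, 870.4, 921 and 846 TPM with JQ1 and 269.6, 300.0 and 248 TPM in vehicle. Both treated groups lay above vehicle. AMBP rose with FIDAS-5 by 1.28 (SE 0.12, adjusted p = 2.44e-04) and with JQ1 by 1.69 (SE 0.12, adjusted p = 2.99e-05). ITIH2, a heavy chain that joins bikunin, had 349, 289.5 and 231 TPM with FIDAS-5, 97.7, 87.2 and 48.8 TPM with JQ1 and 328, 442 and 372 TPM in vehicle. FIDAS-5 overlapped vehicle and JQ1 lay below both. ITIH2 fell with JQ1 by 2.32 on the log2 scale (SE 0.27, adjusted p = 2.71e-04), and with FIDAS-5 the change was -0.40 (adjusted p = 0.331).

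ITIH1, another heavy chain, had 1.61, 1.01 and 1.49 TPM with FIDAS-5, 0.429, 0.449 and 0.220 TPM with JQ1 and 0.520, 0.422 and 0.511 TPM in vehicle. ITIH1 entered the test only through its FIDAS-5 libraries. Its change was 0.67 with FIDAS-5 (SE 0.14, adjusted p = 0.0101, or 0.00877 with no filter, and 1.31 with a pseudocount of 0.1) and -0.12 with JQ1 (adjusted p = 0.516). AHSG, fetuin-A, a negative acute phase protein, had 148, 154 and 127 TPM with FIDAS-5, 64.4, 68.1 and 66.5 TPM with JQ1 and 173, 180.2 and 152 TPM in vehicle. AHSG fell with JQ1 by 1.33 (SE 0.13, adjusted p = 9.69e-05), and with FIDAS-5 the change was -0.23 (adjusted p = 0.229). FETUB, fetuin-B, was not tested, with at most 0.739 TPM.

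**Figure D4:**
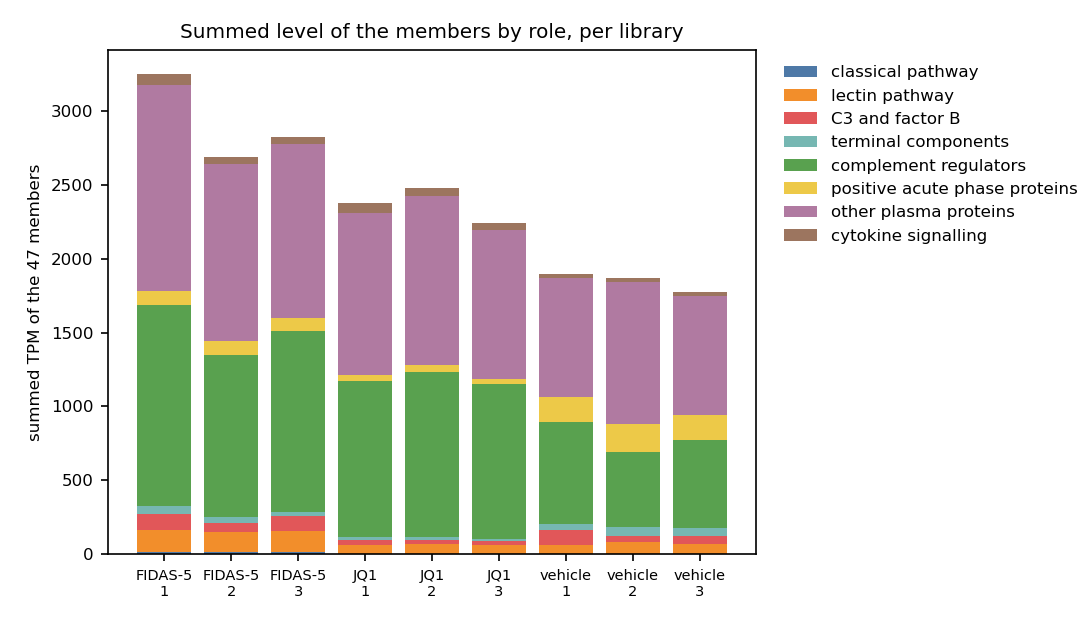
Summed TPM of the 47 members in each library, stacked by role; bars start at 0, with FIDAS-5 libraries at the left, JQ1 in the middle and vehicle at the right. Totals were 2689 to 3245 TPM with FIDAS-5, 2237 to 2477 TPM with JQ1 and 1775 to 1897 TPM in vehicle, whereas the positive acute phase proteins summed to 85.7 to 94.3, 38.3 to 45.7 and 166 to 191 TPM with FIDAS-5, with JQ1 and in vehicle. The totals are weighted to the most abundant members.

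Of the cytokine signalling members, STAT3 rose with both compounds. STAT3, the transcription factor downstream of interleukin 6, had 29.4, 24.8 and 29.7 TPM with FIDAS-5, 33.2, 33.0 and 31.4 TPM with JQ1 and 14.1, 16 and 13.1 TPM in vehicle. All treated libraries lay above vehicle. The log2 fold change was 0.91 with FIDAS-5 (SE 0.13, adjusted p = 0.00147) and 1.13 with JQ1 (SE 0.13, adjusted p = 2.33e-04). IL6ST, the shared receptor chain gp130, had 39.1, 27.0 and 18.8 TPM with FIDAS-5, 30.4, 24 and 13.6 TPM with JQ1 and 15.1, 15.5 and 14.7 TPM in vehicle. FIDAS-5 libraries lay above vehicle, and JQ1 library 3 below it. IL6ST changed by 0.81 with FIDAS-5 (adjusted p = 0.106) and by 0.49 with JQ1 (adjusted p = 0.253) and was not called. Without library 3 of both treated groups the changes in IL6ST were 1.06 (adjusted p = 0.00895) and 0.80 (adjusted p = 0.0128), and without JQ1 library 3 alone they were 0.81 (adjusted p = 0.0400) and 0.80 (adjusted p = 0.0424). SOCS3, the feedback inhibitor of this receptor, and IL1RN, the interleukin 1 receptor antagonist, were not tested, with at most 0.576 and 0.262 TPM.

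JQ1 and FIDAS-5 libraries were also set against each other, which compares the compounds at the single dose of each. Of the 34 tested members, 4 were higher with JQ1 than with FIDAS-5, 22 were lower and 8 were not called, where 34.8% of all tested genes were called, 16.4% higher and 18.5% lower. The median log2 difference was -1.10 over the tested members and 0.05 over all genes, and 29 members did not overlap, against 47.6% of all genes. MBL2 and ITIH1 passed the filter through their FIDAS-5 libraries alone, so a lower level with JQ1 is tied to the filter for them. The same holds for C1R, C4BPA, C4BPB, C8A and C8B, which passed through vehicle and FIDAS-5 libraries only. C8B reached 1 TPM only in vehicle library 3 and FIDAS-5 libraries 1 and 2. The counts and the median describe the members that passed and are not support for a difference. On the log2(TPM + 1) scale the widest differences were in MBL2 (-3.32, SE 0.28, adjusted p = 3.99e-05), ORM1 (-2.67, SE 0.15, adjusted p = 4.40e-06), LRG1 (-2.60, SE 0.18, adjusted p = 1.17e-05) and C1S (-2.20, SE 0.19, adjusted p = 3.90e-05). The order depends on the pseudocount: by ratio of means JQ1 was 43.6-fold lower than FIDAS-5 in MBL2, 24.2-fold in C8A, 14.5-fold in C4BPA, 12.5-fold in C8B and 7.68-fold in ORM1. With a pseudocount of 0.1 the differences were -4.01 in C8A, -3.10 in C4BPA and -2.93 in ORM1.

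The members higher with JQ1 than with FIDAS-5 were CLU (1.24, SE 0.26, adjusted p = 0.00661), HP (1.2, SE 0.18, adjusted p = 9.72e-04), CD59 (1.10, SE 0.21, adjusted p = 0.00431) and AMBP (0.41, SE 0.12, adjusted p = 0.0320). The AMBP call was lost without FIDAS-5 library 2 (adjusted p = 0.10), FIDAS-5 library 3 (0.0904), JQ1 library 1 (0.0791) or JQ1 library 2 (0.113), with median-of-ratios scaling (0.0706) and with protein-coding genes rescaled alone (0.0772). By role, all 3 tested members of the classical pathway and all 3 tested terminal components were lower with JQ1 than with FIDAS-5. Of all tested genes, 18.5% were called lower in this comparison, and C1R, C8A and C8B reached 1 TPM in no JQ1 library. Among the classical members, C2 differed least (-0.38, adjusted p = 0.0440), and its call was lost without FIDAS-5 library 2 (adjusted p = 0.135) or 3 (0.0999), JQ1 library 1 (0.112), 2 (0.0813) or 3 (0.0869), or vehicle library 1 (0.0532) or 3 (0.0659). That of C5 (-1.17, adjusted p = 0.0238) was lost without FIDAS-5 library 1 (adjusted p = 0.0736), FIDAS-5 library 2 (0.0785), JQ1 library 2 (0.0576) or JQ1 library 3 (0.0513), with no filter (0.0508) and with only the 6 libraries compared (0.0564). STAT3 (0.22, 95% interval -0.07 to 0.50), CD55 (-0.13, -0.52 to 0.25) and CD46 (-0.03, -1.05 to 1.0) were among those not called. MASP2 differed by 0.68 (adjusted p = 0.0690), and by 0.98 without JQ1 library 3 (adjusted p = 0.00391). The MASP2 difference was also called with median-of-ratios scaling, quantile normalization, protein-coding genes rescaled alone, the GC trend removed, or without library 3 of both treated groups. It was called with library number as a block (adjusted p = 0.0496). That block fit also blocks the vehicle libraries, whose deviations did not all follow those of same-numbered treated libraries.

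**Figure D5:**
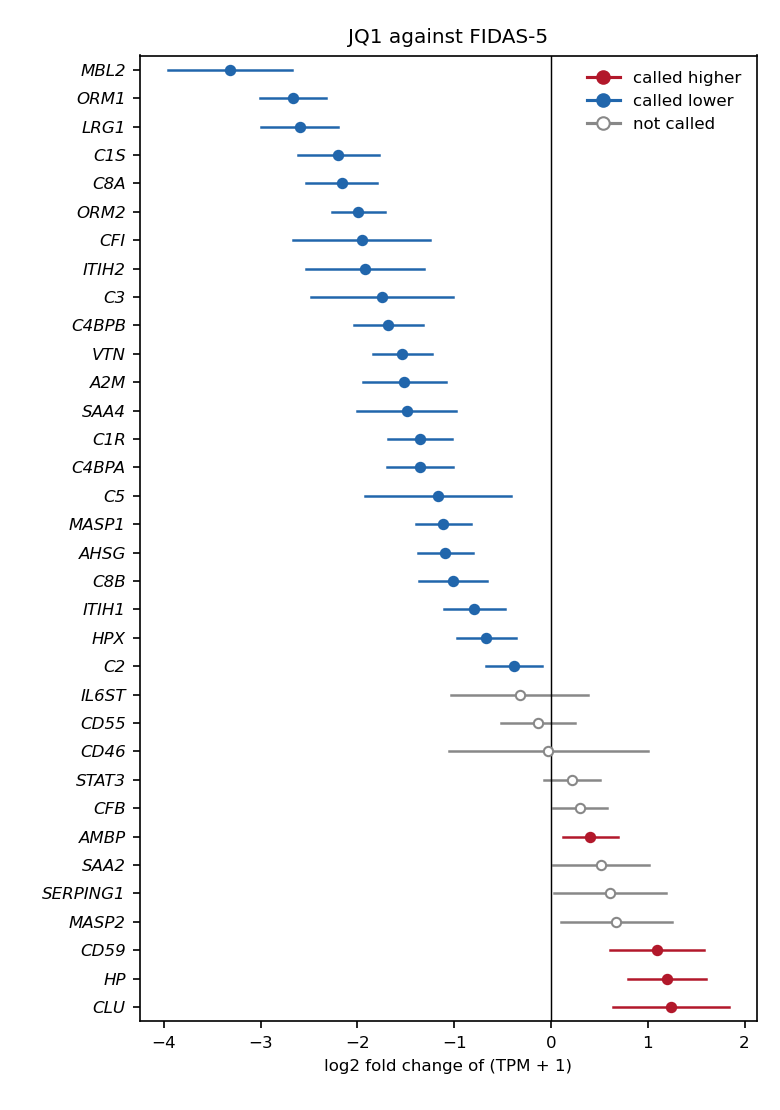
Log2 difference of (TPM + 1), JQ1 against FIDAS-5, for the 34 tested members in order of size; lines are 95% confidence intervals and filled points passed an adjusted p of 0.05. It runs from -3.32 for MBL2 to 1.24 for CLU, with 22 members called lower and 4 called higher with JQ1. MBL2 and ITIH1 entered the test only through their FIDAS-5 libraries, and C1R, C4BPA, C4BPB, C8A and C8B only through vehicle and FIDAS-5 libraries.

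Other genes of the same systems were counted from lists outside the 47 members. Of 36 further complement genes, 7 were tested: 2 were called higher and 0 lower with FIDAS-5 (28.6% of those tested, against 20.2% of all genes; median log2 fold change 0.24), and 1 was called higher and 3 lower with JQ1 (57.1%, against 38.5%; median -0.45). C1RL, a C1r-like protease gene, averaged 12.2 ± 0.133 TPM with FIDAS-5 and 5.75 ± 0.292 TPM in vehicle (SD, n = 3 each; log2 fold change 0.97, adjusted p = 8.27e-04). CPN1, the catalytic chain of carboxypeptidase N, which trims C3a and C5a, averaged 3.96 ± 0.168 TPM with JQ1 and 18.1 ± 0.600 TPM in vehicle (-1.95, adjusted p = 1.45e-05). SUSD4, a membrane complement inhibitor, entered the test only through its FIDAS-5 libraries, with 1.59, 1.05 and 1.48 TPM with FIDAS-5, 0.880, 0.952 and 0.954 TPM with JQ1 and 0.327, 0.515 and 0.333 TPM in vehicle. C1QBP, which binds the C1q head, fell by 0.69 with JQ1 (adjusted p = 0.00501), and CALR, calreticulin, fell by 0.50 (adjusted p = 0.0112).

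Of 26 further acute phase and plasma protein genes, 22 were tested: 8 were called higher and 2 lower with FIDAS-5 (45.5% of those tested, against 20.2% of all genes; median 0.27), and 9 were called higher and 8 lower with JQ1 (77.3%, against 38.5%; median -0.26). Of these 22 genes, 2 entered the test only through their FIDAS-5 libraries. F2, prothrombin, rose with FIDAS-5 by 1.03 (adjusted p = 0.00154). FGA, the fibrinogen alpha chain and a positive acute phase protein, rose with FIDAS-5 by 0.96 (adjusted p = 0.0130). The other fibrinogen chains FGB (0.17) and FGG (0.03), and SERPINA1 (-0.16), SERPINA3 (-0.17) and CP (0.28), were not called with FIDAS-5. TTR, the thyroxine carrier transthyretin and a negative acute phase protein, changed by 0.95 with FIDAS-5 (adjusted p = 6.33e-04) and by -1.73 with JQ1 (adjusted p = 1.64e-05). SERPINC1, antithrombin, changed likewise by 0.87 (adjusted p = 0.00160) and -1.65 (adjusted p = 3.12e-05). With JQ1, FGA rose by 3.38 (adjusted p = 1.55e-05) and SERPINA1, alpha-1-antitrypsin, by 1.66 (adjusted p = 3.47e-05). FGB and FGG averaged 961 and 2036 TPM with JQ1, against 96.6 and 206 TPM in vehicle. SERPINA3 and CP were lower, at 1.99 and 0.235 TPM with JQ1 against 7.74 and 3.21 TPM in vehicle. So positive acute phase genes outside the members went both ways with JQ1.

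Of 37 further genes of interleukin 6 and interleukin 1 signalling, 29 were tested: 3 were called higher and 1 lower with FIDAS-5 (13.8% of those tested, against 20.2% of all genes; median 0.15), and 6 were called higher and 5 lower with JQ1 (37.9%, against 38.5%; median 0.30), shares at or below those of all genes. CEBPD, a C/EBP factor induced in the acute phase response, averaged 17.3 ± 1.25 TPM with FIDAS-5 and 7.02 ± 0.543 TPM in vehicle (1.19, adjusted p = 4.88e-04). SOCS2 reached 1 TPM only in its FIDAS-5 libraries, with 1.35, 1.33 and 1.32 TPM, and in JQ1 library 2, with 1.15 TPM. It had 0.322, 0.164 and 0.184 TPM in vehicle, so its FIDAS-5 change of 0.93 (adjusted p = 0.00220) is tied to the filter. SOCS1, another inhibitor of cytokine signalling, fell by 1.01 with FIDAS-5 (adjusted p = 0.00710). IL11RA, a receptor chain that pairs with gp130, entered the test only through its JQ1 libraries, with 4.33, 5.44 and 5.23 TPM with JQ1 and 0.350, 0.373 and 0.559 TPM in vehicle. HNF4A and CEBPA, liver transcription factors, rose with JQ1 by 0.91 (adjusted p = 0.00123) and 0.94 (adjusted p = 0.00330). MYD88, the interleukin 1 receptor adaptor, rose with FIDAS-5 by 0.74 (adjusted p = 0.00331) and fell with JQ1 by 1.04 on the log2 scale (adjusted p = 2.85e-04).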

How the data were processed

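The authors deposited 1 table of TPM per gene symbol for 9 libraries of total RNA, made with Salmon against build hg38, per the submitters' processing notes; the Salmon version and the annotation are not given in the sources used here. TPM divides by transcript length and library total and keeps no read counts, so depth and counting error are unknown.

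Values were transformed to log2(TPM + 1), and the 13573 of 27800 symbols that reached 1 TPM in 3 or more of the 9 libraries were fitted with limma 3.58.1 in R 4.3.3, with a mean per group over all 9 libraries and untrended empirical Bayes moderation, which added 2.86 prior to the 6 residual degrees of freedom. Tests were two-sided with Benjamini-Hochberg adjustment over all tested genes and a threshold of 0.05. The procedure was tested on simulated data. Promoters, coding identity and figures were handled in Python 3.11.15 with Biopython 1.88 and matplotlib 3.10.9. Coding identity was taken from the longest open reading frame of GENCODE transcripts.

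The members and lists were chosen with earlier results of these data known. Every member could be named, and from each list outside them up to 4 genes with the smallest adjusted p for each compound, of which not all are printed. Other acute phase genes of those lists were named after their values were seen. The labels give library numbers but no batch. Deviations from group means of same-numbered FIDAS-5 and JQ1 libraries correlated across genes with r of 0.26, 0.102 and 0.422. All were above the 0.1 used to treat numbers as pairs between the compounds. Differently numbered libraries of the compounds had r of -0.35 to 0.179. The highest of these was FIDAS-5 library 1 with JQ1 library 2, so the pairing is not established. Same-numbered treated and vehicle libraries did not all pass 0.1.

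Alternatives were a pseudocount of 0.1, no filter, a filter at 5 TPM, median-of-ratios scaling, quantile normalization, protein-coding genes rescaled alone, subtraction of a lowess curve over GC content of transcripts (13042 of the tested genes), only the 6 libraries compared, trended moderation, library number as a block, summing near-identical pairs, leaving out each library and, chosen after seeing the data, leaving out FIDAS-5 and JQ1 library 3 together.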

Additional observations from a re-analysis of the deposited data

How the results depend on the processing

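No called member reversed its direction in any of the 21 alternatives in which it was tested. Of the called members, 17 of 19 with FIDAS-5, 21 of 24 with JQ1 and 23 of 26 in JQ1 against FIDAS-5 were called in every alternative that tested them. The exceptions were LRG1 and CLU with FIDAS-5, C1R, C2 and CD55 with JQ1, and C2, C5 and AMBP in JQ1 against FIDAS-5. Counts of members ranged over the alternatives from 10 to 20 higher and 4 to 7 lower with FIDAS-5, from 7 to 10 higher and 11 to 18 lower with JQ1, and from 3 to 7 higher and 15 to 23 lower in JQ1 against FIDAS-5. The lowest counts include the filter at 5 TPM, under which fewer members are tested. Leaving out 1 library gave 13 to 15 and 5 to 7, 7 to 10 and 14 to 17, and 3 to 6 and 20 to 22 in the same order. Members higher with JQ1 than with FIDAS-5 numbered 7 under quantile normalization and 7 with the GC trend removed, against 4; the cause was not tested.

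Over all genes with FIDAS-5, 2742 were called, against 4416 with the GC trend removed, 1639 without vehicle library 3 and 1640 without FIDAS-5 library 3. Quantile normalization split these calls into 1904 higher and 1756 lower, against 1711 and 1031. In JQ1 against FIDAS-5, 4726 genes were called, and 2991 with the filter at 5 TPM, where fewer were tested.

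The replicate block, with library number as the block over all 9 libraries, gave 16 higher and 5 lower with FIDAS-5, 8 and 16 with JQ1, and 5 and 22 in JQ1 against FIDAS-5. Same-numbered libraries correlated with r of 0.0373, 0.16 and 0.00539 between vehicle and FIDAS-5 and of -0.0765, 0.0333 and -0.00203 between vehicle and JQ1, so in those comparisons they share only a number. Between the compounds the block changed no call of a member other than MASP2. Depth is unknown, so no counting error can be given for levels under 1 TPM.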

Other observations

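Members on the same chromosome did not always change alike. AMBP (chr9:114060127-114078300, GRCh38.p14) rose with JQ1 by 1.69 on the log2(TPM + 1) scale. ORM1 (chr9:114323098-114326479) and ORM2 (chr9:114329869-114333251), which lie farther along that chromosome and do not adjoin AMBP, had changes of -3.80 and -3.06. C2 (chr6:31897783-31945672) and CFB (chr6:31946095-31952084), which adjoin each other, rose with JQ1 by 0.44 and 0.59, and changed with FIDAS-5 by 0.82 and 0.29, of which the second was not called. C8A (chr1:56854797-56918223) and C8B (chr1:56929207-56966015) both fell with JQ1. C4BPA fell with FIDAS-5 by 1.06, while its neighbour C4BPB changed by 0.41 and was not called. These members were picked after their values were seen, and no test of a difference between them was made.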
